A study of Homo sapiens with 8 samples.

Results

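Genes for secreted neuropeptides and for granins, the acidic proteins packed with them, were followed in the established human neuroblastoma line SH-SY5Y after knockdown of the ribosomal protein gene RPS29. The genes were chosen by symbol from a list of 10, in part because the RNA of several was higher after knockdown, so their RNA differences are given below as a description with no test. Of these 10 genes, 9 were listed in both count tables and passed the count filter in both, among 17927 genes in RNA-seq and 14019 in Ribo-seq. They were the neuropeptide precursors VIP, NPY and GAL and the granins and related proteins VGF, SCG2, SCG3, SCG5, CHGA and CHGB. The fourth neuropeptide precursor, ADCYAP1, was analysed here only in the promoter search below. The study compared cells with a hairpin RNA directed at RPS29 (shRPS29) with cells given a control hairpin (shCONT), with 2 libraries of each in RNA-seq and 2 of each in Ribo-seq, 8 in all. The hairpin sequences, the vector, the time after its delivery and whether the cells were pooled or clonal are not stated in the labels. The labels do not say that replicates came from separate cultures, so the p-values measure only the spread between these libraries, which may be technical.

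Neuropeptides are made as longer precursors that enter the regulated secretory pathway. Granins are stored with them in large dense-core vesicles, where they bind calcium and help form the vesicle core. Prohormone convertases cut both kinds of precursor, and carboxypeptidase E and the amidating enzyme PAM finish the peptides. Release follows a rise in calcium at the cell surface. Neuroblastoma derives from the sympathoadrenal lineage, in which chromogranin A and neuropeptide Y are long-used secretory markers. Transcription of several of these genes is known to respond to cyclic AMP through the factor CREB, which binds the cyclic AMP response element (CRE), and many neuronal genes are held down outside neurons by the repressor REST, which binds the RE1 element.

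The promoters of VIP, VGF, CHGA and NPY are printed because VIP and VGF had the largest RNA differences below, CHGA and NPY the 2 footprint differences with an unadjusted p under 0.05, and because VIP, VGF and CHGA are textbook CREB targets. Each sequence is the 120 bases before the transcript start in the RefSeq promoter table on GRCh38.p14, read 5′ to 3′ on the gene's strand. For VIP and NPY that start is the edge of the gene span given below, while for VGF and CHGA it lies inside the span. Capitals mark TGACGTCA, the full CRE, or its core TGACG on either strand. The windows are chr6:152750677-152750796 (plus strand) for VIP, chr7:101165570-101165689 (minus strand) for VGF, chr14:92923030-92923149 (plus strand) for CHGA and chr7:24284070-24284189 (plus strand) for NPY.
VIP: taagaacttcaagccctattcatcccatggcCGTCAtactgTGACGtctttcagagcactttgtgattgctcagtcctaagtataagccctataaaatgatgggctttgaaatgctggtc
VGF: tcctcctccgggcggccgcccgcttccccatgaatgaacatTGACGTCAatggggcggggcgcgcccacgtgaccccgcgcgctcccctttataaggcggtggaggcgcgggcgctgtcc
CHGA: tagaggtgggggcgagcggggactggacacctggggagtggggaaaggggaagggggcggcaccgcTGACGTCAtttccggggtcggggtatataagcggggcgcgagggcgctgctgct
NPY: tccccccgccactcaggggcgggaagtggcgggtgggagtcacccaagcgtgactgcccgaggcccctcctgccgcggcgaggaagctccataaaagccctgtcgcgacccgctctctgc
A window of 300 bases, from 250 before to 50 after the start, was searched on both strands for the 7 of 10 genes with an entry, and in 35116 promoters of the same length. SCG2, CHGB and GAL had no entry and were not searched. The full CRE was in 1.85% of all promoters and in 2.77% of those of genes tested here. It lay in VGF with its first base 79 bases before the start, and in CHGA 54 bases before it. The core TGACG, which every full CRE contains, was in 24.6% of all and 31.4% of tested genes' promoters. VIP held it on opposite strands at 89 and 79 bases before the start, SCG5 at 17 and SCG3 at 4, and 1 of the 2 ADCYAP1 entries held it at 238. The AP-1 letters TGANTCA were in 7.71% of all and 5.14% of tested genes' promoters and in none of the 7 genes. Of the 2 parts of RE1, TTCAGCACC was in 0.376% of all promoters (0.278% for tested genes) and GGACAGCGC in 0.581% (0.798%). SCG3 held both, at 9 and 26 bases after its start, and VGF held the second on the reverse strand at 9 bases before its start. NPY held none of the motifs searched. A match is a description of the letters, and no binding was measured here.

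RPS29, a protein of the small ribosomal subunit, had RNA of 137 and 160 CPM in control libraries against 7.53 and 6.46 CPM in knockdown libraries (CPM being the count scaled to library size after TMM, the unit of every level below). Total counts were 17539104 to 19156104 in RNA-seq and 2630463 to 4375971 in Ribo-seq. The 4 genes with most counts took 2.73 to 3.16% of an RNA-seq library and 35.3 to 52.3% of a Ribo-seq library. Noradrenergic markers of the cell line (10 of 10 listed) summed to 5773 to 5938 CPM in controls and 6275 to 6413 after knockdown. The defining enzyme TH stood at 4, 2, 1 and 0 counts. Mesenchymal neuroblastoma markers (9 of 9 listed) summed to 1340 to 1359 and 1519 to 1528 CPM. Epithelial markers (5 of 5 listed) reached at most 8.36 CPM and blood markers (3 of 5 listed) at most 2.31 CPM in any library. The part of these marker differences in the results below was not tested, and in bulk libraries a change in the share of cells of a type and a change in RNA per cell cannot be told apart. Ribo-seq also held counts on genes with almost no RNA. Over 708 genes at least 50 kb long with at most 0.1 RNA CPM, the rate was 0.0529 and 0.0289 counts per kb in control libraries against 0.273 and 0.201 in knockdown libraries. The count that each gene's span would receive at that rate is called its background count below.

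In RNA-seq, 8 of the 9 genes had both knockdown libraries above both controls, and CHGA had both below. Over all 14723 genes tested, 32.3% lay wholly above and 32.9% wholly below. More than 2-fold higher were VIP, VGF and SCG2, 3 of the 9, against 1.54% of all genes. The choice of the genes used this contrast, so these shares support nothing further. The median log2 fold change was 0.20 for the 9 genes and 0.01 for all genes tested.

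Among the neuropeptides the largest difference was in VIP, vasoactive intestinal peptide, a vasodilator and neurotransmitter that acts through cyclic AMP (chr6:152750797-152759760). Its RNA was 44.0 and 50.8 CPM under the control hairpin and 123 and 124 CPM after knockdown. Both knockdown libraries were far above both controls, and they differed from each other by less than the controls did. The fold was 2.60, a log2 fold change of 1.38 (SE 0.08, n = 2 per group). NPY, neuropeptide Y, a co-transmitter of sympathetic neurons (chr7:24284190-24291862), had 44.0 and 46.1 CPM under the control hairpin and 51.8 and 52.0 CPM after knockdown. Its groups did not overlap, but the log2 fold change was only 0.20 (SE 0.08). GAL, the precursor of galanin, a modulator of transmitter release (chr11:68684544-68691175), had 125 and 127 CPM under the control hairpin and 144 and 132 CPM after knockdown. Its log2 fold change was 0.13 (SE 0.07), and the knockdown libraries differed by more than the lower of them exceeded the controls.

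Among the granins the differences ran from higher to lower. VGF, a nerve-growth-factor-inducible precursor of several bioactive peptides (chr7:101162509-101169952), had 870.3 and 923 CPM under the control hairpin and 2013 and 1979.9 CPM after knockdown. That is 2.23-fold, a log2 fold change of 1.16 (SE 0.08), with the groups far apart. SCG2, secretogranin II, the precursor of secretoneurin (chr2:223596940-223602361), had 78.7 and 84.1 CPM against 171 and 163 CPM. The fold was 2.05, a log2 fold change of 1.04 (SE 0.07), with the groups again far apart.

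SCG5, the 7B2 chaperone of the convertase PCSK2 (chr15:32641710-32697092), had the lowest counts of the 9 genes, 78 and 113 under the control hairpin and 154 and 160 after knockdown. In CPM these were 4.40 and 6.30 against 7.89 and 8.83, for a log2 fold change of 0.64 (SE 0.21). The control libraries differed from each other by more than the knockdown libraries did. CHGB, chromogranin B, a major granin of adrenal chromaffin cells (chr20:5911510-5925353), had 159.8 and 168 CPM against 179.9 and 198 CPM, a log2 fold change of 0.20 (SE 0.07). SCG3, secretogranin III, which links granin aggregates to the vesicle membrane (chr15:51681503-51721026), had 117 and 127 CPM against 138 and 130.1 CPM, a log2 fold change of 0.13 (SE 0.07). In both genes the groups were separate but close. The gene just inside the 2-fold line was SCG2 (log2 fold change 1.04), and the nearest outside it was SCG5 (0.64).

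CHGA, chromogranin A, the granin measured in blood as a neuroendocrine tumour marker (chr14:92922664-92935285), was the exception. Its RNA was 1634 and 1704 CPM under the control hairpin and 1131 and 1272 CPM after knockdown. Both knockdown libraries were below both controls, at 0.72 times the control mean and a log2 fold change of -0.47 (SE 0.08). VGF and CHGA, which both carry a full CRE in the searched window, lay on opposite sides of the controls. A link between the element and either difference was not tested. Under every scaling, filter, tool and left-out library tried, the 9 genes kept the sign of their RNA difference.

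**Figure D1:**
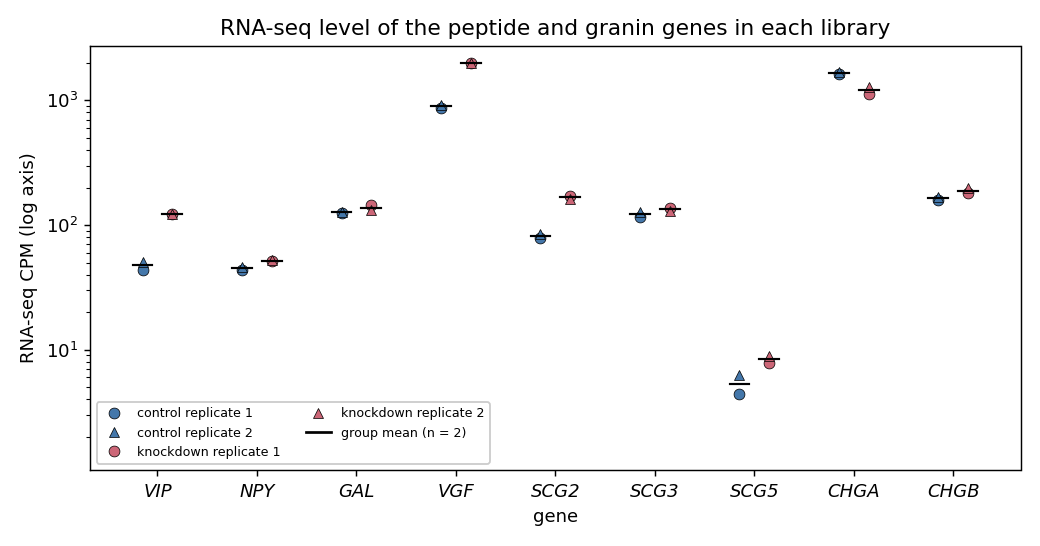
RNA level in CPM (log axis) of the 9 genes in each of the 4 RNA-seq libraries, controls and knockdown in separate colours and the replicates as separate symbols. VIP, VGF and SCG2 stand clear above their controls, CHGA stands below, SCG5 lies above at low levels, and SCG3, CHGB, NPY and GAL lie close to their controls.

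Ribosome footprints come from separate libraries that the choice of genes did not use, and were tested. CHGA footprints fell, and those of the other 8 genes did not pass the threshold. Over all 11853 genes tested, 7.96% were called higher and 0.607% lower, 8.57% in either direction, at an adjusted p under 0.05 (edgeR's quasi-likelihood test, Benjamini-Hochberg adjustment). Of the 9 genes, 0 were called higher and 1 lower, and 2 had an unadjusted p under 0.05. The share of all genes with such an unadjusted p was not taken, so that last count supports nothing further. Both knockdown libraries lay below both controls in 5 genes (26.7% of all genes) and above them in 2 (29% of all genes), and the groups overlapped in VGF and SCG2. The log2 fold change was below 0 in 7 of the 9 genes and in 48.7% of all genes, with medians of -0.57 and 0.04. Among genes tested in both assays, that share varied with control RNA level, from 20.4% under 10 CPM to 51.4% from 10 to 100. It was 78.7% from 100 to 1000 CPM, where VGF, SCG3, CHGB and GAL lie, and 76.3% above that, where CHGA lies.

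CHGA had 946 and 1122 footprint counts under the control hairpin and 94 and 416 in the knockdown libraries. Scaled, these were 282 and 340.3 CPM against 39.1 and 104 CPM. Both knockdown libraries were far below both controls, and knockdown replicate 1 was the lower. The log2 fold change was -2.11 (SE 0.62, 95% interval -3.43 to -0.80), at 0.23 times the control level, with an adjusted p of 0.0439 in edgeR's quasi-likelihood test. The call was lost without control replicate 1 (log2 fold change -2.26, adjusted p 0.212), without control replicate 2 (-1.98, adjusted p 0.428) and without knockdown replicate 1 (-1.57, adjusted p 0.126), and kept without knockdown replicate 2 (-3.07, adjusted p 0.0315), all in edgeR. It was also lost with a stricter count filter (-1.83, adjusted p 0.0668) and among genes with at least 1 RNA CPM (-1.96, adjusted p 0.0574). Expected background counts were at most 3.67% of its counts in any library.

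NPY had 799 and 749 footprint counts under the control hairpin and 184 and 419 after knockdown, or 238 and 227 CPM against 76.5 and 105 CPM. The knockdown libraries were again both lower, with replicate 1 the lower of them. The log2 fold change was -1.36 (SE 0.56, 95% interval -2.53 to -0.18), with an unadjusted p of 0.026 and an adjusted p of 0.148 in edgeR, so it was not called. VIP, whose RNA was highest relative to control, had 39 and 44 counts against 38 and 54. In CPM the groups were 11.6 and 13.3 against 15.8 and 13.5, so they separated by very little, and the log2 fold change was 0.23 (SE 0.64, 95% interval -1.13 to 1.59, adjusted p 0.882 in edgeR). That interval includes no change and the 2.60-fold RNA difference.

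VGF had 552 and 643 footprint counts under the control hairpin and 256 and 841 after knockdown, or 165 and 195 CPM against 106 and 211 CPM. One knockdown library was below both controls and the other above both. Its log2 fold change was -0.18 (95% interval -1.38 to 1.02, adjusted p 0.898 in edgeR). SCG2 had 74 and 122 counts against 40 and 158, with the same arrangement. In CPM these were 22.1 and 37.0 against 16.6 and 39.6, a log2 fold change of -0.06 (95% interval -1.32 to 1.19, adjusted p 0.968 in edgeR). Without knockdown replicate 1 the value turned to 0.24 in VGF and 0.43 in SCG2, and SCG2 also turned to 0.35 without control replicate 2.

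SCG3, CHGB and GAL had few footprints. SCG3 had 41 and 52 counts against 14 and 41, for a log2 fold change of -0.78 (95% interval -2.29 to 0.73). Background counts reached 77.1% of its count in 1 library, and after subtracting them the value was -1.49. CHGB had 46 and 42 counts against 16 and 44, which is 13.7 and 12.7 CPM against 6.65 and 11.0, for a log2 fold change of -0.57 (95% interval -2.06 to 0.93). GAL had 47 and 78 counts against 28 and 52, for a log2 fold change of -0.61 (95% interval -1.93 to 0.72). In all 3 genes both knockdown libraries were below both controls in CPM, but the intervals include no change. Leaving out 1 library, SCG3 ran from -0.43 without knockdown replicate 1 to -1.33 without knockdown replicate 2, and CHGB from -0.25 to -1.06 without the same libraries. GAL ran from -0.21 without control replicate 2 to -0.97 without control replicate 1.

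SCG5 had 13 and 1 footprint counts under the control hairpin and 28 and 20 after knockdown. Its log2 fold change of 1.96 (95% interval -0.50 to 4.42) was not called, and ran from 1.02 without control replicate 2 to 4.56 without control replicate 1. The background counts expected over its span were 2.93 and 1.6 in control libraries and 15.1 and 11.2 after knockdown.

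**Figure D2:**
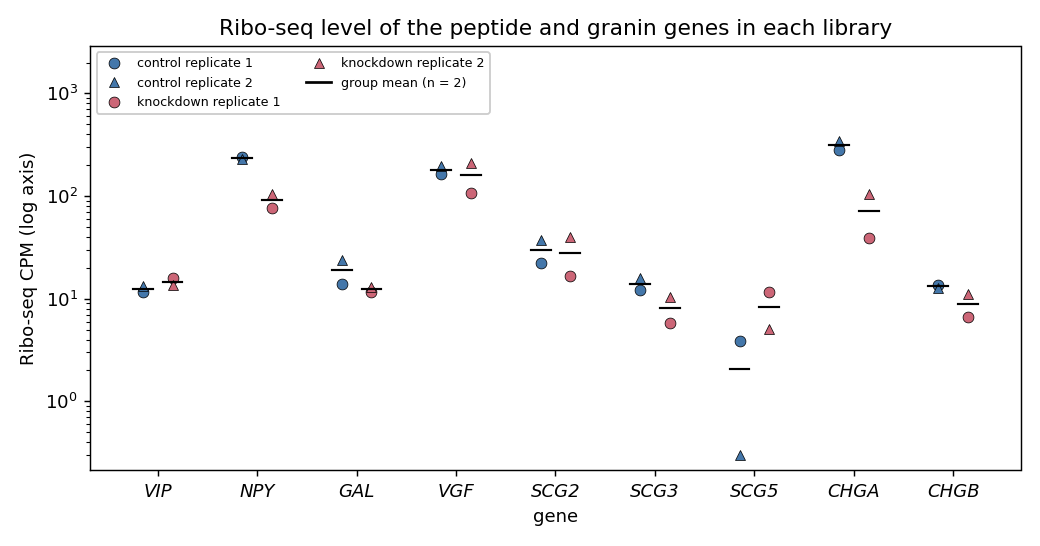
Ribosome footprint level in CPM (log axis) of the 9 genes in each of the 4 Ribo-seq libraries. CHGA and NPY lie below their controls in both knockdown libraries, while in VGF and SCG2 the knockdown libraries fall on both sides of the controls.

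RNA and footprints were then set side by side. Translational efficiency, the change in footprints relative to RNA, was below 0 in 8 of the 9 genes and in 48.1% of 10648 genes, with medians of -0.96 and 0.06. By control RNA level, the share of genes below 0 was 19.1% under 10 CPM and 47.2% from 10 to 100. From 100 to 1000 CPM it was 70.2%, and above that 59.2%. Translational efficiency shares the RNA values that chose the genes, so it is given as a description with no test. Its standard errors pool both assays and understate the spread of footprints. The values on the log2 scale were -1.52 (SE 0.58) for CHGA, -1.44 (SE 0.31) for NPY and -1.22 (SE 0.47) for VGF. VIP stood at -1.03 (SE 0.34), SCG2 at -0.96 (SE 0.54), SCG3 at -0.77 (SE 0.41), CHGB at -0.63 (SE 0.38) and GAL at -0.61 (SE 0.39). SCG5 alone was above 0, at 1.42 (SE 1.19), and rested on the few counts given above: it was 4.19 without Ribo-seq control replicate 1 and 0.51 without Ribo-seq control replicate 2. Without Ribo-seq knockdown replicate 1 and without Ribo-seq knockdown replicate 2, in that order, the values were -1.02 and -2.39 for CHGA, -0.53 and -1.73 for SCG2, -0.50 and -1.27 for SCG3 and -0.39 and -1.07 for CHGB. GAL was -0.22 without Ribo-seq control replicate 2, and SCG2 was -0.56. The sign was kept in each gene with any 1 library left out.

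**Figure D3:**
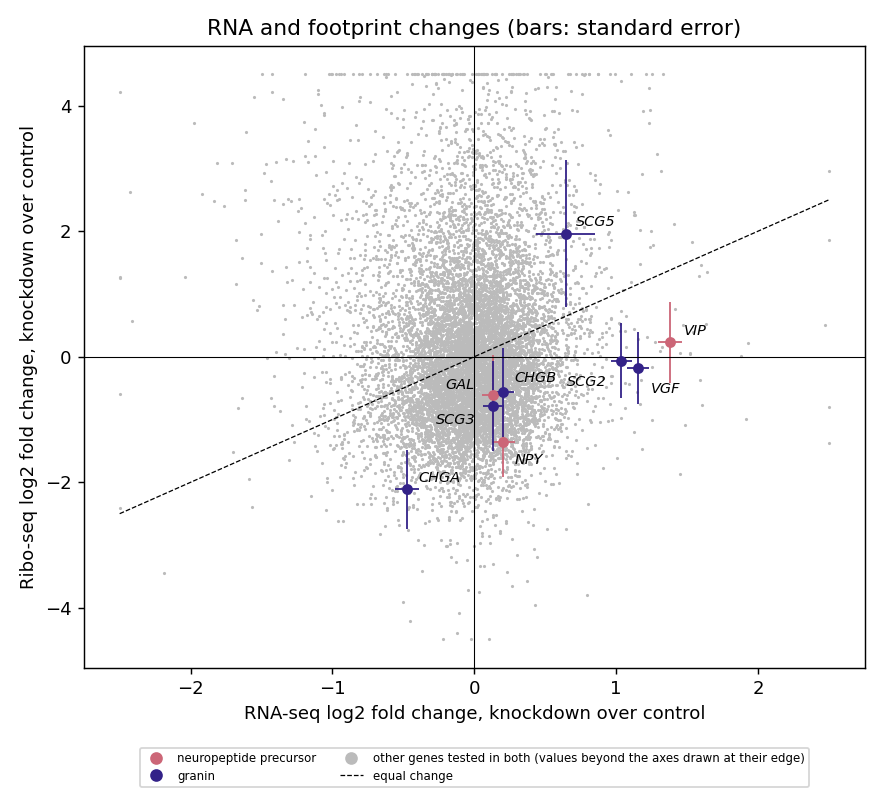
RNA-seq log2 fold change (x axis) against Ribo-seq log2 fold change (y axis), knockdown over control, for the 9 genes and for the other genes tested in grey. VIP, VGF and SCG2 lie far to the right with footprints near 0, and CHGA and NPY lie well below 0 in footprints.

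Footprint differences varied with RNA level across all genes. The median Ribo-seq log2 fold change was 1.36 over 1552 genes under 10 control RNA CPM, -0.04 over 6762 genes from 10 to 100 CPM, -0.61 over 2258 genes from 100 to 1000 CPM and -0.70 over 76 genes above that. Of the 9 genes, 7 were in the 2 middle classes. Within its class CHGA was near the bottom, with 1.32% of genes lower, and NPY had 8.46% of genes lower. The other genes had between 40.5 and 71.4% of their class lower. In translational efficiency CHGA had 2.63%, NPY 6.58%, VGF 9.88%, VIP 13.9% and SCG2 15.4% of their class lower. SCG3 had 29.9%, CHGB 36.5%, GAL 38.2% and SCG5 49%. These ranks subtract the RNA differences used to choose the genes, so low ranks of VIP, VGF and SCG2 are favoured by that choice. Of 25 genes more than 2-fold higher in RNA, at 10 control CPM or more, VIP, VGF and SCG2 among them, 21 had a translational efficiency below 0, and 0 were called higher in footprints. Translational efficiency subtracts the RNA difference by which these 25 were chosen, so values below 0 are favoured by that choice. Their median log2 fold change was 1.17 in RNA and 0.42 in footprints.

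The ratio of footprint CPM to RNA CPM, a level rather than a difference, placed each gene among 9099 genes with at least 10 RNA CPM, whose median was 0.247 in controls and 0.214 after knockdown. NPY had the highest ratio of the 9 genes, 5.17 in controls (percentile 98.9) and 1.75 after knockdown (percentile 94.5). CHGB was low in both, at 0.0807 (percentile 7.8) and 0.0468 (percentile 4.24). CHGA moved from 0.187 to 0.0597, VGF from 0.201 to 0.0795 and VIP from 0.264 to 0.119. The ratio divides by the RNA level that was used to choose the genes. Lower ratios of VIP, VGF and SCG2 after knockdown are therefore favoured by that choice, and the moves are a description with no test. The ratio is not corrected for length, since a footprint count and an RNA count of 1 gene share its length only in part.

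**Figure D4:**
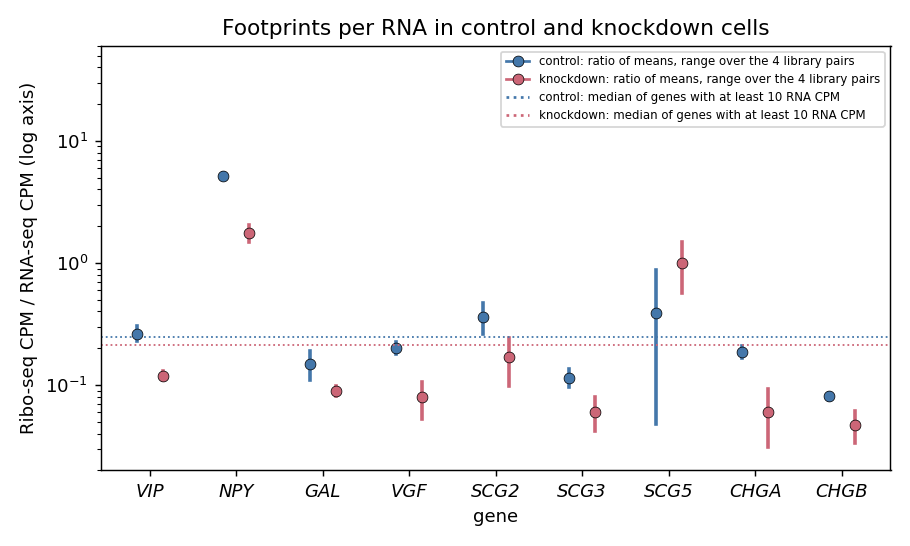
Ratio of footprint CPM to RNA CPM (log axis) for each of the 9 genes in controls and knockdown. Points are ratios of group means and bars the range over the 4 pairs of libraries. The ratio is lower after knockdown in every gene but SCG5. It divides by the RNA level used to choose the genes, so lower ratios of VIP, VGF and SCG2 are favoured by that choice.

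The surrounding secretory pathway was read through 7 lists of genes in RNA-seq, of which 130 genes were tested. The lists were chosen with earlier results of these data known, so the counts of calls in them are a description. Over all genes, 14.4% were called higher and 16.3% lower, 30.7% in either direction. Of 15 other peptide precursors tested, 2 rose and 1 fell, with a median log2 fold change of -0.06. NMU, neuromedin U, a gut and brain peptide, fell from 19.8 and 21.3 CPM to 10.9 and 9.88 CPM (log2 fold change -0.98, SE 0.13, adjusted p 5.75e-05 in edgeR). NPW, neuropeptide W, rose from 9.86 and 8.58 to 16.3 and 13.5 CPM (0.69, adjusted p 0.00325), and its paralogue NPB rose by 0.74 (adjusted p 0.0229). The NPB call was lost without control replicate 1 (adjusted p 0.0632), control replicate 2 (adjusted p 0.102) or knockdown replicate 1 (adjusted p 0.0815), and with DESeq2 (0.0616), with log2 fold changes of 0.65 to 0.78. PCSK1N, which encodes proSAAS, a granin-like convertase inhibitor, had a log2 fold change of -0.08 (adjusted p 0.44).

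Of 14 processing enzymes tested, 4 rose, none fell, and the median log2 fold change was 0.18. PCSK7 (0.34) and FURIN (0.40), convertases of the constitutive pathway, and PAM (0.26), the amidating enzyme, were called at adjusted p of 0.00913, 0.0145 and 0.0203 in edgeR, and CTSL (0.29), a lysosomal and vesicle protease, at 0.0486. Each of these 4 calls was lost without at least 1 library. PCSK7 was lost without control replicate 1 (adjusted p 0.208), FURIN without control replicate 2 (0.0503) or knockdown replicate 2 (0.0881), and PAM without control replicate 1 (0.19) or 2 (0.142) and with DESeq2 (0.0508), its log2 fold change staying at 0.25 to 0.27. CTSL was lost without control replicate 1 (0.364), control replicate 2 (0.0991) or knockdown replicate 1 (0.0902), and with DESeq2 (0.134), limma-voom (0.0519) or no count filter (0.0579). The convertases of dense-core vesicles were close to absent, with PCSK1 at 2, 1, 2 and 1 counts and PCSK2 at 1, 0, 4 and 5 counts, and neither was tested. CPE, the carboxypeptidase, stood at 0.19 (adjusted p 0.0671).

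Of 50 dense-core vesicle genes tested, 14 fell and 6 rose, with a median log2 fold change of -0.07. HID1, needed for vesicle maturation, fell by 0.81 on the log2 scale (adjusted p 1.17e-05 in edgeR), and the calcium sensor SYT7 fell by 0.97 (adjusted p 5.1e-05). The small GTPases RAB3D and RAB2A fell by 0.77 and 0.61, and the vesicle membrane protein PTPRN2 by 0.62. These 5 kept an adjusted p under 0.05 with each library left out in turn, in fits where the lone library of a group is assumed to vary like the other group.

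Of 5 receptors tested, 1 rose and 1 fell, with a median log2 fold change of -0.02. ADCYAP1R1, the PACAP receptor, fell from 104 and 114 CPM to 71.8 and 79.7 CPM (log2 fold change -0.53, SE 0.08, adjusted p 2.31e-04 in edgeR). C1QBP, a mitochondrial protein also described as a receptor for a VGF peptide, rose by 0.29 (adjusted p 0.0186), a call lost without control replicate 1 (adjusted p 0.234) or control replicate 2 (adjusted p 0.0919). Of 26 cyclic AMP pathway and CREB factor genes tested, 7 rose and 4 fell, with a median log2 fold change of 0.05. PRKAR2B, a regulatory subunit of protein kinase A, fell from 90.3 and 94.4 CPM to 37.0 and 36.4 CPM (log2 fold change -1.33, SE 0.08, adjusted p 7.96e-08). Of the other regulatory subunits, PRKAR1B rose by 0.34 (adjusted p 0.0016) and PRKAR2A rose by 0.37 (adjusted p 0.00532), but both calls were lost without control replicate 2 (adjusted p 0.0682 and 0.157). The cyclase ADCY7 fell by 0.83 on the log2 scale (adjusted p 2.21e-04), and the cyclic AMP phosphodiesterase PDE4D rose by 0.79 (adjusted p 2.65e-04). CREB1 itself stood at 0.01 (adjusted p 0.964).

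Of 12 CREB-responsive genes tested, 6 rose and none fell, against 14.4% and 16.3% of all genes, with a median log2 fold change of 0.48. This list too was chosen with earlier results known, so the count supports nothing further. EGR1, an immediate early transcription factor, rose from 12.2 and 15.8 CPM to 43.8 and 32.4 CPM (log2 fold change 1.44, SE 0.15, adjusted p 7.96e-06 in edgeR), with both knockdown libraries well above both controls. JUNB rose by 0.71 (adjusted p 1.31e-05), the antiproliferative gene BTG2 by 0.72 (adjusted p 3.35e-04) and the synaptic gene ARC by 0.59 (adjusted p 0.00134). GEM, a small GTPase, rose by 0.30 (adjusted p 0.00795), a call lost without control replicate 1 (adjusted p 0.17). FOS, the best known of the group, had a log2 fold change of 0.49 (adjusted p 0.188). These genes also answer to signals other than CREB. In footprints the median log2 fold change was -0.82 over the 8 genes of this list tested, against 0.04 over all genes. In translational efficiency the median was -1.44 over 6 genes, against 0.06 over all genes. Of 8 genes of the REST complex tested, none rose and 2 fell, SIN3A by 0.33 (adjusted p 0.00288) and KDM1A by 0.28 (adjusted p 0.00719) on the log2 scale. SIN3A was lost without control replicate 1 (adjusted p 0.0675), and KDM1A without control replicate 1 (adjusted p 0.133) or 2 (adjusted p 0.18). REST itself stood at 0.06 (adjusted p 0.7).

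**Figure D5:**
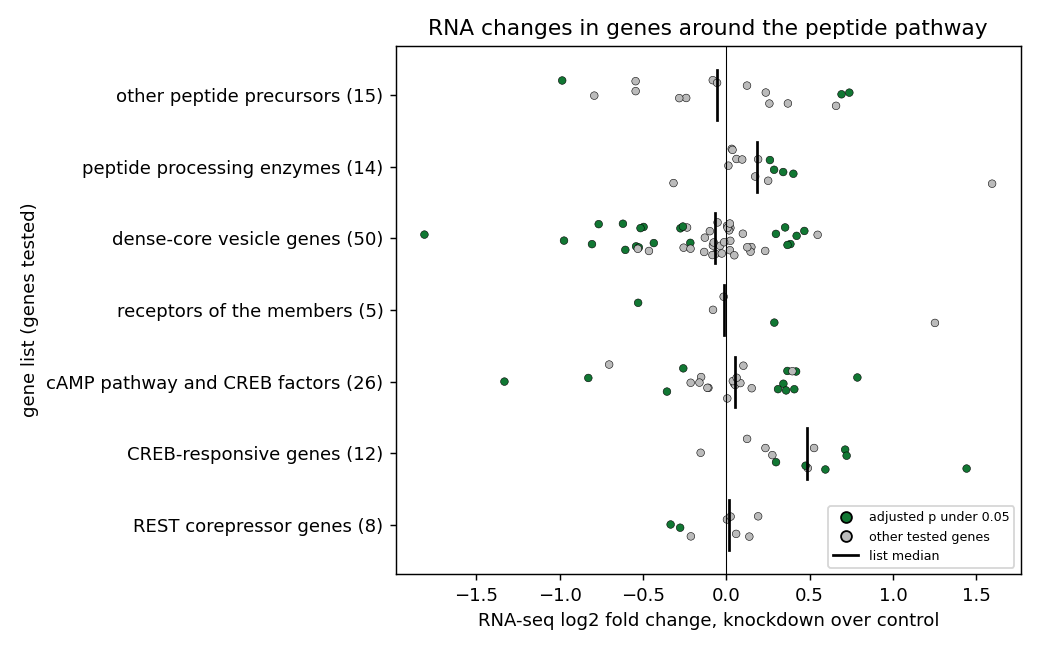
RNA-seq log2 fold change (x axis) of each tested gene in the 7 lists, 1 row per list, with genes past an adjusted p of 0.05 coloured. The CREB-responsive genes that pass lie to the right of 0, and most dense-core vesicle genes that pass lie to the left. The lists were chosen with earlier results of these data known.

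In footprints, 115 genes of these lists were tested, with 12 called higher (10.4%, against 7.96% of all genes) and 0 lower (against 0.607% of all genes) in edgeR. Of the 12, 10 span at least 200 kb, from 230.0 to 588 kb, and in these the knockdown counts were 0.609 to 6.91 times the background count. PCSK5, a convertase, had 12 and 7 counts against 177 and 58 (log2 fold change 3.92, adjusted p 0.00609), beside background counts of 129 and 95.3 in the knockdown libraries. CADPS, a priming factor for dense-core vesicles, had 24 and 14 counts against 187 and 111 (3.20, adjusted p 0.00754), beside background counts of 130 and 96.1. Also called higher were the vesicle genes VTI1A, RAB3C, SYTL5, SYT1, SYT9 and RIMS1 and the cyclic AMP genes ADCY2 and PDE4B. The part of this background in the results was not tested. The 2 shorter genes were VIPR1, a VIP receptor, with 2 and 2 counts against 74 and 47 (5.05, adjusted p 0.00406), and NR4A2, a nuclear receptor, with 195 and 23 against 1512 and 768 (3.65, adjusted p 0.0148). Their background counts after knockdown were 13.2 and 9.72, and 2.26 and 1.67. The RNA of VIPR1 was barely detected, at 7 and 6 counts against 17 and 16.

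Each of the 12 footprint calls was lost without at least 1 library. Without control replicate 1 the adjusted p was 0.0654 for PDE4B, 0.137 for RAB3C, 0.367 for SYT1 and 0.0565 for SYT9. Without control replicate 2 it was 0.218 for ADCY2, 0.199 for CADPS, 0.352 for NR4A2, 0.0801 for PCSK5, 0.298 for PDE4B, 0.23 for RAB3C, 0.26 for RIMS1, 0.476 for SYT1 and 0.321 for VTI1A. Without knockdown replicate 1 it was 0.131 for CADPS, 0.328 for PCSK5, 0.0993 for RIMS1, 0.226 for SYT1, 0.0983 for SYT9, 0.22 for SYTL5 and 0.182 for VIPR1, and without knockdown replicate 2 it was 0.0672 for NR4A2. The lowest log2 fold changes in these fits were 1.45 for SYT1, 2.29 for CADPS and 2.35 for PCSK5. With limma-voom SYTL5 (adjusted p 0.0638) and VIPR1 (0.149) were lost, and with total-count scaling SYT1 (0.0956) and NR4A2 (0.058). PCSK1N, whose RNA did not pass, had 107 and 112 footprint counts against 23 and 45 (log2 fold change -1.65, adjusted p 0.0895 in edgeR).

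In translational efficiency 3.01% of all genes were called higher and 0.873% lower, and 4 genes of the lists passed. PCSK1N (-1.45, adjusted p 0.0443 in edgeR) and GEM (-1.76, adjusted p 0.0361) were called lower, while RAB3C (2.92, adjusted p 0.0289) and PRKAR2B (2.90, adjusted p 0.0289) were called higher. The test used 1 dispersion per gene for both assays, so these p-values rest on errors that understate the spread of footprints. With any 1 RNA-seq library or Ribo-seq control replicate 2 left out, 0 genes of the whole table passed in either direction, so the loss of these 4 calls there (adjusted p 0.0512 to 0.266) is not particular to them. In those fits the values stayed at -1.42 to -1.50 for PCSK1N, -1.68 to -1.81 for GEM, 2.80 to 3.02 for RAB3C and 2.77 to 2.91 for PRKAR2B. PCSK1N was also lost with no count filter (adjusted p 0.052). All 4 calls were lost with the replicate block (adjusted p 0.0567 to 0.0727 in edgeR).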

How the data were processed

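The members and the gene lists were chosen with earlier results of these data known. The authors deposited raw counts by gene symbol, 1 table per assay. The submitters' processing notes name build hg38 and the tools STAR, featureCounts, Salmon, Bowtie2 and Trim Galore. Their roles and versions and the features counted are not given in the sources consulted. Per the labels' protocols, RNA-seq used a stranded total RNA kit and Ribo-seq used RNase I, monosomes from a size-exclusion column and rRNA depletion. Where Ribo-seq counted introns or small RNAs within genes, footprint counts include them. Overlapping genes can share reads.

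Each assay was fitted alone with edgeR 4.0.16 (R 4.3.3) on its 4 libraries, with TMM scaling, filterByExpr, the quasi-likelihood test and Benjamini-Hochberg adjustment over all genes tested, called at 0.05. Translational efficiency was the assay-by-condition interaction over all 8 libraries, with 1 dispersion per gene for both assays, so its errors understate the spread of footprints. Standard errors are the absolute log2 fold change over the square root of F. All members were named, with up to 5 called genes of each list by smallest p in RNA-seq and any called in Ribo-seq or translational efficiency; CREB1, REST, CPE, FOS, PCSK1 and PCSK2 were named after their values were seen. Alternatives were RLE and total-count scaling, DESeq2 1.42.0, limma-voom (limma 3.58.1), other count filters, a replicate block, background subtraction and leaving out each library, where the lone library left in a group is assumed to vary like the other group. The tests were run on simulated counts drawn with 1 dispersion for all genes of an assay and no added background. That check therefore does not cover the higher background of the knockdown Ribo-seq libraries or a spread that differs between genes. Symbols matched RefSeq (GRCh38.p14) for 17693 RNA-seq and 13956 Ribo-seq genes.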

Additional observations from a re-analysis of the deposited data

How the results depend on the processing

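The RNA differences of the 9 genes kept their sign under every alternative tried. In Ribo-seq the value turned for VIP with total-count scaling (-0.014), for VGF with means of at least 50 counts (0.12) and without knockdown replicate 1 (0.24, in a range of -0.83 to 0.24 over the left-out libraries), and for SCG2 with means of at least 50 counts (0.23), at 1 RNA CPM or more (0.10), without control replicate 2 (0.35) and without knockdown replicate 1 (0.43, in a range of -0.90 to 0.43). Total-count scaling moved the median log2 fold change of all genes from 0.04 to -0.21 in Ribo-seq and from 0.06 to -0.33 in translational efficiency, where VIP moved to -1.41 and NPY to -1.83. The cause of these changes was not tested. Genes called lower among the 9 in Ribo-seq numbered 0 at 50 counts, 0 at 1 RNA CPM, 2 with the replicate block and 0 to 1 leaving out a library. With the block NPY was called too (-1.37, adjusted p 0.0453 in edgeR), as were 11 vesicle genes higher and 2 list genes lower in Ribo-seq. The block ended the translational efficiency calls of PCSK1N (adjusted p 0.0727), GEM (0.0692), RAB3C (0.0567) and PRKAR2B (0.0602) and the RNA-seq calls of CTSL (0.0811) and C1QBP (0.0536). In the labels, same-numbered libraries share only the number. Their deviations had a correlation of -0.04 in RNA-seq and 0.11 in Ribo-seq, which cannot decide whether they were made together.

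Over all genes, RNA-seq called 1225 to 2739 higher and 1496 to 2876 lower leaving out a library. Ribo-seq called 521 higher with total counts, 170 at 50 counts, 621 at 1 RNA CPM and 247 to 694 leaving out a library, and 171 lower with DESeq2, 171 with limma-voom, 12 at 50 counts, 397 with the block, 43 at 1 RNA CPM and 5 to 53 leaving out a library. Translational efficiency called 1015 higher with DESeq2, 44 at 50 counts, 22 with the block and 0 to 2030 leaving out a library, and 602 lower with total counts, 675 with DESeq2, 58 with no filter, 29 at 50 counts, 0 with the block and 0 to 1707 leaving out a library. In RNA-seq lists, DESeq2 called 1 peptide precursor and 2 processing enzymes higher, limma-voom 2 precursors lower, the block 0 receptors higher and total counts 2 REST complex genes higher. Leaving out a library, higher calls ranged over 1 to 3 precursors, 1 to 5 processing enzymes, 2 to 7 vesicle genes, 0 to 1 receptors, 3 to 8 cyclic AMP genes, 4 to 7 CREB-responsive and 0 to 2 REST complex genes, and lower calls over 9 to 17 vesicle, 2 to 7 cyclic AMP, 0 to 1 CREB-responsive and 0 to 3 REST complex genes. Standard errors of the 9 genes were 0.56 to 1.17 in Ribo-seq against 0.07 to 0.21 in RNA-seq, so small footprint differences could not be resolved.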
